A study of Mus musculus with 27 samples.

Results

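The genes described here are 7 classical cadherins, Cdh1, Cdh2, Cdh3, Cdh5, Cdh6, Cdh11 and Cdh15. They were chosen by name from the 24454 genes of the expression table, and all 7 were in it. Classical cadherins are transmembrane proteins that hold neighbouring cells together at adherens junctions. Their outer part binds cadherins of the next cell, and their tail binds p120-catenin and β-catenin or plakoglobin, which link it through α-catenin to actin. Epithelial cells rely on E-cadherin, encoded by Cdh1. During an epithelial-mesenchymal transition (EMT), for which TGFβ is a classical inducer, E-cadherin is typically lost and N-cadherin, encoded by Cdh2, gained, which is known as the cadherin switch.

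RNA was sequenced from 9 epithelial cell lines, grown out of thoracic mammary tumours of MMTV-PyMT mice (FVB/N background, females of about 12 weeks). The MMTV promoter drives the polyoma middle T oncogene in their mammary epithelium. All lines carried mutant Bcl9 and Bcl9L (B9/B9L), coactivators of β-catenin, and none was wild type. The lines ΔHD1/fl (2 lines) and ΔHD2/fl (2 lines) had 1 mutant and 1 floxed allele, with the Pygopus-binding HD1 or the β-catenin-binding HD2 domain affected. ΔHD1/- (2 lines) and ΔHD2/- (3 lines) had lost that floxed allele to an adenovirus carrying Cre and GFP, after which GFP-positive cells were sorted. Each line was left without cytokine, kept for 3 days in Wnt3a at 100 ng/ml, or kept for 4 days in TGFβ at 2 ng/ml. This gave 27 libraries of 21.86 to 33.69 M reads, where 1 M is 1000000. Values are CPM, reads per 1 M reads assigned to genes.

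Some lines stood apart from their labels as epithelial cells. ΔHD1/fl line 2 and ΔHD1/- line 2 had little of the epithelial list without cytokine. In ΔHD1/fl line 2 its 8 markers summed to 3.95 CPM. In ΔHD1/- line 2 they summed to 1091 CPM, almost all of it Krt8 (1089 CPM), with no read of Epcam. The other 7 lines summed to 1667 to 4544 CPM. Fibroblast markers summed to 2649 and 6466 CPM in these 2 lines and to at most 219.6 CPM in the others. These 2 sums came almost all from Col1a1, Col1a2, Col3a1, Pdgfra and Pdgfrb. Dcn was at 0.858 and 1.51 CPM in the 2 lines, and Lum and Thy1 had no read. Of the basal epithelial markers, Trp63 was at 180 and 75.8 CPM in them, against 0.209 to 82.8 CPM in the others. Krt14 was lower in them, at 356 and 223 CPM against 1000 to 8746 CPM. ΔHD2/- lines 2 and 3 were closer to each other (r 0.993 to 0.997 over genes) than other lines of a group (0.807 to 0.957), though their counts still differed by more than counting noise.

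Without cytokine, the lines fell into 3 patterns of Cdh1 and Cdh2, set out line by line. Shares are of the sum of both genes in CPM per kb of exon, which allows levels of different genes to be compared. ΔHD1/fl line 1 held Cdh1 almost alone, with 606 CPM of Cdh1, 0.823 CPM of Cdh2 and a Cdh1 share of 99.9%. ΔHD1/fl line 2 was its opposite, with 0.522 CPM of Cdh1, 137 CPM of Cdh2 and a Cdh1 share of 0.414%. ΔHD1/- line 2 was like the latter, at 0.237 and 154 CPM and a share of 0.168%. The 6 other lines made both cadherins at once, and Cdh1 was the larger. ΔHD1/- line 1 had 817 CPM of Cdh1 and 126 CPM of Cdh2, a share of 87.6%. The ΔHD2/fl lines had 1053 and 1145 CPM of Cdh1 against 139 and 147 CPM of Cdh2, with shares of 89.2% and 89.5%. In ΔHD2/- lines 1, 2 and 3 the shares were 86.8%, 84.5% and 85.9%, from 923, 682 and 712 CPM of Cdh1 and 154, 137 and 127 CPM of Cdh2. Cdh2 was thus at 126 to 154 CPM in 8 of the 9 untreated lines, with or without Cdh1. In these bulk samples, fewer cells that make a gene and less RNA per cell cannot be told apart, so both cadherins in a line need not mean both in a cell.

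**Figure D1:**
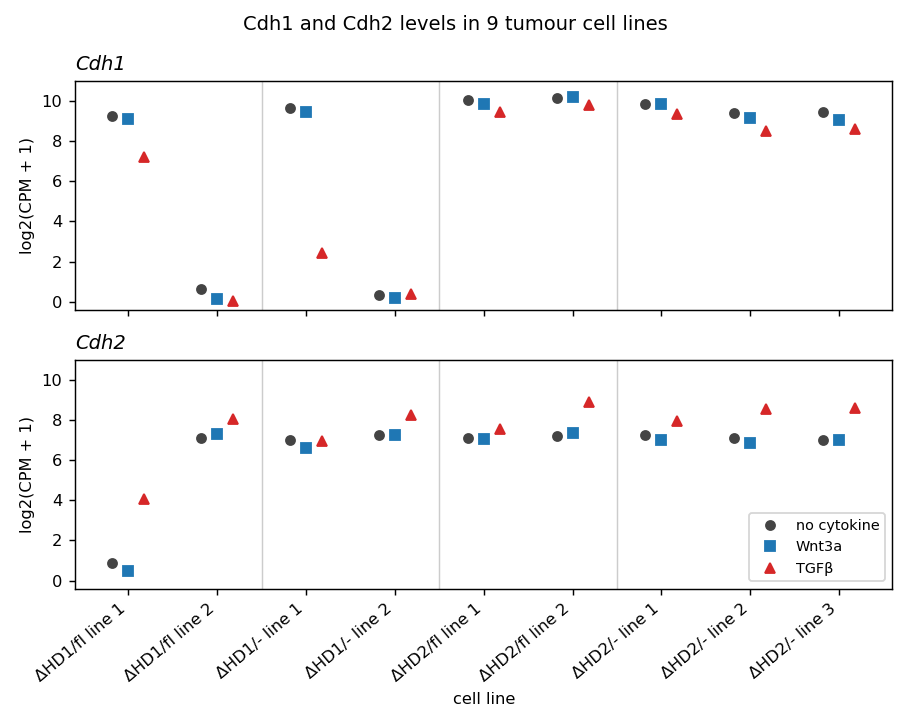
Levels of Cdh1 (top) and Cdh2 (bottom) as log2(CPM + 1) in each of the 9 lines, 1 point per library, coloured by treatment. Cdh1 was near 0 in line 2 of ΔHD1/fl and of ΔHD1/-, and Cdh2 was near 0 in ΔHD1/fl line 1 without TGFβ.

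In order of untreated Cdh1 level, ΔHD2/fl came first at 1099 ± 64.7 CPM (SD, n = 2), followed by ΔHD2/- at 772 ± 131 CPM (SD, n = 3). ΔHD1/- averaged 409 ± 578 CPM and ΔHD1/fl 303 ± 428 CPM (SD, n = 2 each), so that spread between lines of a genotype was larger than the mean and these 2 neighbours overlapped. For Cdh2 the means were 143 ± 5.74 CPM in ΔHD2/fl, 140.2 ± 19.4 CPM in ΔHD1/-, 139.3 ± 13.5 CPM in ΔHD2/- (n = 3) and 69.1 ± 96.6 CPM in ΔHD1/fl (SD, n = 2 unless given). Line values overlapped between genotypes, except that both ΔHD1/fl lines (0.823 and 137 CPM) were below both ΔHD2/fl lines. Across genotypes without cytokine, neither gene was called by limma. Cdh1 differed by -0.52 ± 3.06 and Cdh2 by -0.04 ± 1.60 between ΔHD2/- and ΔHD2/fl (log2(CPM + 1), estimate ± SE, limma adjusted p = 0.988 and 1). Each SE was pooled over all groups and so includes the wide spread between ΔHD1 lines. For Cdh1 this test therefore cannot decide whether the ΔHD2 genotypes differ. Every ΔHD2/- line (682 to 923 CPM) was below both ΔHD2/fl lines (1053 and 1145 CPM), as in 14.9% of all tested genes. Between ΔHD1/- and ΔHD1/fl the differences were 0.07 ± 3.35 for Cdh1 and 3.14 ± 1.76 for Cdh2 (limma adjusted p = 1 for both). Without ΔHD1/fl line 2 the Cdh2 difference was 6.27 and called (adjusted p = 1.14e-05). There ΔHD1/fl line 1, with next to no Cdh2, stood alone for its genotype and was assumed to vary like the other groups. Calls here and below needed an absolute log2 difference of at least 1 and, after Benjamini-Hochberg adjustment over all 13270 tested genes, a p of at most 0.05. None of the 6 tested members was called between ΔHD1/- and ΔHD1/fl, where limma called 0.0678% of all tested genes and edgeR 0%, and none had an unadjusted p under 0.05 with either.

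With TGFβ the Cdh1 share was lower in all 9 lines, by very different amounts. ΔHD1/- line 1 showed the change of largest size: Cdh1 went from 817 to 4.29 CPM, 191-fold lower (95% counting interval 158 to 232), while Cdh2 stayed at 126 and 123 CPM (0.975-fold, 0.927 to 1.03). Its Cdh1 share went from 87.6% to 3.66%. ΔHD1/fl line 1 showed another form. There Cdh2 went from 0.823 to 15.9 CPM, 19.3-fold higher (18 against 377 reads), and Cdh1 from 606 to 148 CPM, 4.10-fold lower (3.95 to 4.26), so that Cdh1 still made up 91.1%. These exact intervals allow for counting error alone, and without molecular identifiers the reads may include copies of a single molecule.

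In the ΔHD2/fl and ΔHD2/- lines Cdh1 was lower and Cdh2 higher, and per kb of exon Cdh1 remained the larger. ΔHD2/fl line 1 went to 703 CPM of Cdh1 and 189 CPM of Cdh2, and line 2 to 888 and 483 CPM, with Cdh1 shares of 80.3% and 66.8%. ΔHD2/- line 1 went to 657 and 249.8 CPM, a share of 74.2%. ΔHD2/- lines 2 and 3 went to 369 and 390.4 CPM of Cdh1 and 373 and 389 CPM of Cdh2, so that Cdh1 held 52.0% and 52.3% per kb. Without division by length the share in line 2 was 49.8%. Across these 5 lines Cdh1 was 1.29- to 1.85-fold lower and Cdh2 1.36- to 3.28-fold higher. In the lines that had almost no Cdh1, Cdh2 was higher too. ΔHD1/fl line 2 went from 137 to 263 CPM of Cdh2 and ΔHD1/- line 2 from 154 to 299.5 CPM, 1.91- and 1.95-fold. Their Cdh1 was at 0.0355 CPM (1 read) and 0.288 CPM.

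**Figure D2:**
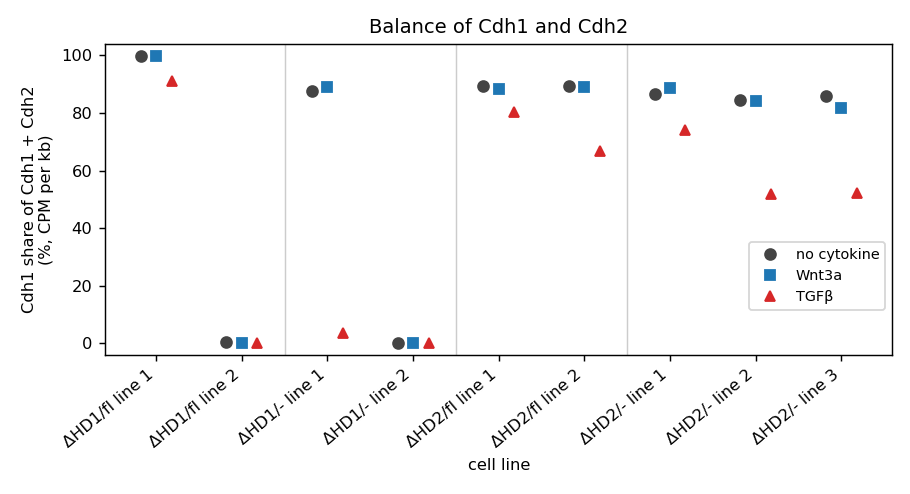
Cdh1 as a percentage of Cdh1 plus Cdh2 (both in CPM per kb of exon) in each of the 9 lines, 1 point per library, coloured by treatment. With TGFβ the share went to 3.66% in ΔHD1/- line 1 and to between 52.0% and 91.1% in the other 6 lines that began above 84%.

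Tested as the mean over the 4 genotypes with limma, the TGFβ difference of Cdh1 was -1.53 ± 1.60 (log2(CPM + 1), SE, adjusted p = 0.552) and that of Cdh2 1.21 ± 0.84 (adjusted p = 0.345), since the fit took the differences between lines of a genotype as error. With cell line as a block, which compares each line with itself, both passed, at adjusted p = 0.0481 for Cdh1 and 0.00179 for Cdh2. Cdh1 was lower in 8 of 9 lines and Cdh2 higher in 8 of 9. Among all tested genes, 27.6% were lower and 10% higher in at least 8 of 9 lines. The blocked call of Cdh1 held in only 1 of the 9 fits that left out a line, the one without ΔHD1/- line 2 (-2.45, adjusted p = 7.45e-06). That fit has ΔHD1/- line 1 alone for its genotype, so that the spread comes from the other genotypes and the lone line is assumed to vary like them. Without ΔHD1/- line 1 its estimate was -0.61, and without any of the 7 others the adjusted p was 0.0656 to 0.150. It was also lost when ΔHD2/- lines 2 and 3 were averaged (adjusted p = 0.0908) or the libraries rescaled by the median of ratios (adjusted p = 0.0717). With cell line as a random effect in place of the block, Cdh1 was not called (adjusted p = 0.116) and Cdh2 was (0.0153). The blocked call of Cdh2 was lost only without ΔHD1/fl line 1, where its estimate was 0.93. The TGFβ response did not pass as different between ΔHD1/- and ΔHD1/fl, with -2.32 ± 4.74 for Cdh1 and -1.61 ± 2.49 for Cdh2 (limma adjusted p = 1 for both). With the block both had adjusted p over 0.6 (0.740 and 0.606). In that comparison limma called 0.00754% of tested genes (0.0226% with the block) and edgeR 0% (0.0377% with the block), and none of the 6 members was among them. At an unadjusted p under 0.05 there were 0 members by either tool without the block, and 1 by limma and 2 by edgeR with it.

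**Figure D3:**
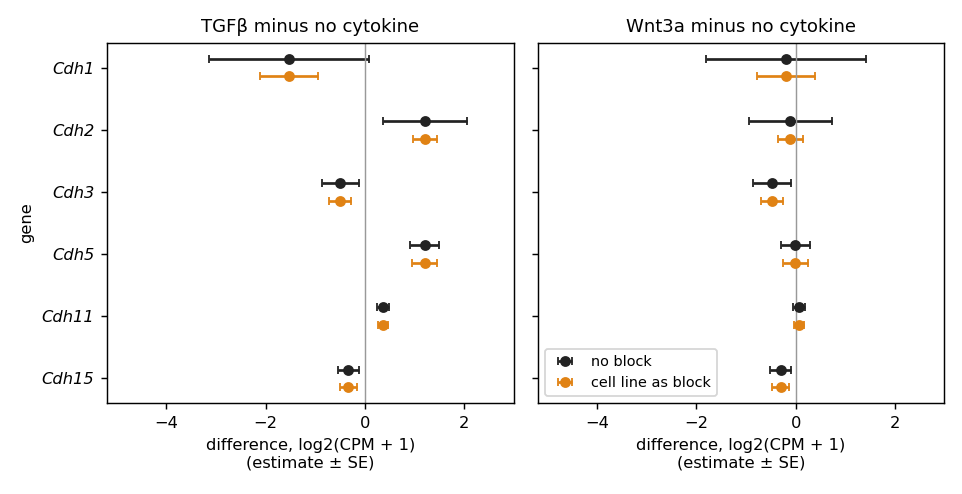
Mean TGFβ (left) and Wnt3a (right) difference over the 4 genotypes for the 6 tested members on log2(CPM + 1), as estimate ± SE from limma without a block (black) and with cell line as a block (orange). The blocked SE of Cdh1 under TGFβ was 0.59 against 1.60 without the block.

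Cdh5 was the only member called for TGFβ without a block. It encodes VE-cadherin, the cadherin of endothelial junctions. No untreated line had more than 0.407 CPM, and 6 of 9 had any read. With TGFβ the levels were 3.32 and 0.533 CPM in ΔHD1/fl lines 1 and 2, and 0.913 and 2.23 CPM in ΔHD1/- lines 1 and 2. They were 0.340 and 2.56 CPM in the ΔHD2/fl lines and 6.32, 0.444 and 0.667 CPM in ΔHD2/- lines 1, 2 and 3. All 9 lines were thus higher with TGFβ, and each counting interval lay above 1, although the levels stayed low. Against 0 untreated reads, the change was at least 7.12-fold in ΔHD1/- line 1 and at least 3.28- and 5.31-fold in ΔHD2/- lines 2 and 3, with 3 reads per library as the floor. The mean difference was 1.20 ± 0.29 (log2(CPM + 1), SE, limma adjusted p = 0.00967). Among all tested genes, 5.41% were higher in all 9 lines and 1.86% were called higher by limma (5.42% in either direction). edgeR also called Cdh5 alone of the 6 (adjusted p = 0.00234), and 6.44% of all genes. With the block both tools called 3 of the 6, Cdh1, Cdh2 and Cdh5, against 8.92% of all genes by limma and 13.8% by edgeR. Cdh5 passed the filter on low values only through TGFβ libraries, and Cdh11 likewise, so their TGFβ response was tested only because they were high with TGFβ. For Cdh5 the adjusted p and the shares given here are therefore no independent support for the change. The call was lost without ΔHD1/fl line 1 (adjusted p = 0.0543), without ΔHD1/- line 2 (just over the limit, 0.05 when rounded) and without ΔHD2/fl line 2 (0.0604), and held without each of these under the block.

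The 8 endothelial markers stayed low. Their sum was 0.783 to 3.75 CPM without cytokine and 0.750 to 2.86 CPM with TGFβ, 2 of the 8 passed the filter, and Cldn5 had no read in any library. Cdh5 overlaps the gene Gm29682 in the annotation. Whether strand was used in counting is not given in the sources used here, so that reads of this pair cannot be told apart.

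Cdh3 and Cdh15 marked the ΔHD2/fl lines. Cdh3 encodes P-cadherin, which in the mammary gland belongs to the basal, myoepithelial layer, and Cdh15 encodes M-cadherin, best known from skeletal muscle and its satellite cells. Untreated Cdh3 was at 54.8 and 183 CPM in ΔHD2/fl lines 1 and 2, and at 5.98, 3.96 and 2.05 CPM in ΔHD2/- lines 1, 2 and 3. It was at 2.39 CPM in ΔHD1/- line 1 and at 0.137 to 0.298 CPM in the 3 other ΔHD1 lines. Untreated Cdh15 was at 9.53 and 9.03 CPM in the ΔHD2/fl lines and at 0.393, 0 and 0 CPM in the ΔHD2/- lines, with 0 to 0.970 CPM in the ΔHD1 lines. Neither gene overlapped between ΔHD2/fl and ΔHD2/-.

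Both were lower in ΔHD2/- than in ΔHD2/fl by limma, Cdh3 by -4.42 ± 0.72 and Cdh15 by -3.20 ± 0.41 (log2(CPM + 1), SE, adjusted p = 0.00381 and 0.000409). These were 2 of 6 tested members, against 0.55% of all genes called and 0.528% called lower. In 14.9% of all genes every ΔHD2/- line was below both ΔHD2/fl lines. edgeR on the recovered reads called neither (adjusted p = 0.263 and 0.471) and 0.0301% of all genes, though both had an unadjusted p under 0.05. With ΔHD2/- lines 2 and 3 averaged, Cdh3 was no longer called (adjusted p = 0.0689) and Cdh15 still was (0.0147). Cdh3 was also not called without ΔHD2/- line 2 (0.0579) or line 3 (0.0799). The 8 basal and myoepithelial markers summed to 7474 and 17072 CPM in the ΔHD2/fl lines and to 1150 to 1577 CPM in the ΔHD2/- lines, most of it Krt14. Krt5 was a large part only in ΔHD2/fl line 2 (6826 CPM, against 559 CPM in line 1). Single markers differed, as Trp63 was at 30.9 and 82.8 CPM in the ΔHD2/fl lines and at 46.8, 0.721 and 0.209 CPM in the ΔHD2/- lines. The part of these markers in the Cdh3 difference was not tested. The ΔHD2/- lines were made by infecting cells with a floxed allele, but which ΔHD2/fl line each came from is not given in the sources used here.

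With TGFβ, Cdh15 went in opposite directions in the 2 genotypes. It went from 9.53 to 0.0378 CPM (1 read) in ΔHD2/fl line 1 and from 9.03 to 0.0710 CPM (2 reads) in line 2. These are ratios of 252 (counting interval 44.8 to 9997) and 127 (34.8 to 1056). In ΔHD2/- lines 1, 2 and 3 it went from 0.393, 0 and 0 CPM to 1.63, 1.11 and 1.38 CPM, 4.14-fold and at least 8.21- and 11.0-fold higher. The ΔHD1/fl lines were also higher, at 0.925 from 0.229 CPM and 3.76 from 0.970 CPM, whereas ΔHD1/- lines 1 and 2 had 0 and 0.0720 CPM. The difference in TGFβ response between ΔHD2/- and ΔHD2/fl was 4.37 ± 0.58 (log2(CPM + 1), SE, limma adjusted p = 0.00468). It was 1 of 6 tested members, and 4 genes were called in all, 0.0301% of those tested, with 0.0226% called higher. With the block 0.098% were called, Cdh15 again the 1 member. edgeR did not call it without the block (adjusted p = 1) or with it (0.192), and called 0% of genes in both. The limma call was lost at a pseudocount of 0.1 (0.0760), without ΔHD2/fl line 2 (0.116), without ΔHD2/- line 2 or 3 (0.121 and 0.160), and with lines 2 and 3 averaged (0.138), though not when averaging was combined with the block (0.029). As the mean over genotypes, where these directions offset each other, Cdh15 differed by -0.33 ± 0.21 (adjusted p = 0.305). No skeletal muscle marker of the 8 passed the filter. Their sum was at most 0.819 CPM without cytokine, in ΔHD2/fl line 1, where it was Myod1 alone, while untreated ΔHD2/fl line 2 had no read of Myod1. With TGFβ the sum was 0 and 0.0710 CPM in the ΔHD2/fl lines and highest in ΔHD1/- line 2 (2.63 CPM).

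The upstream sequence of Cdh15 is shown because the TGFβ response of this gene differed in direction between genotypes. It lies on the plus strand before the annotated start, at chr8:122848124-122848373 (GRCm38, RefSeq). Capitals mark E-boxes (CANNTG, which reads the same on both strands), a general pattern with any bases at its centre. Which factor, if any, binds these matches was not tested.
Cdh15 upstream: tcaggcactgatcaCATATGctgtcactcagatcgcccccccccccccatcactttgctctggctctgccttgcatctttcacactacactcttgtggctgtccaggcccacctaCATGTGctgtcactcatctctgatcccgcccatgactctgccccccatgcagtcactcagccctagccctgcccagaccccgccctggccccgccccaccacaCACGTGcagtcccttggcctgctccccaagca
It held 3 matches, starting 236, 135 and 32 bases before the start. Of 32851 mouse promoters of the same length, 66.2% held at least 1 match and 12.2% at least 3, and a match is a description of the letters only.

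Cdh3 was lower with TGFβ in 6 of 9 lines and higher in 3, with a counting interval below 1 in 5 lines and above 1 in 1. It was lower in ΔHD2/fl line 1 (18.1 from 54.8 CPM), ΔHD2/fl line 2 (114 from 183 CPM) and ΔHD2/- line 1 (2.65 from 5.98 CPM), and at low counts in ΔHD1/fl line 2 (1 from 8 reads). In ΔHD1/- line 1 it went from 2.39 CPM to no read, at least 20.1-fold lower. It was higher in ΔHD2/- line 3 (5.34 from 2.05 CPM), and in ΔHD2/- line 2 it was at 5.14 from 3.96 CPM, with a counting interval that included 1. The mean difference was -0.50 ± 0.38 (log2(CPM + 1), SE, limma adjusted p = 0.391).

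Cdh11 and Cdh6 were nearly silent without cytokine and were higher with TGFβ in the ΔHD2/fl lines. Cdh11 encodes OB-cadherin of mesenchymal cells and osteoblasts, and Cdh6 encodes K-cadherin of the kidney. Untreated Cdh11 was at most 0.345 CPM. With TGFβ it was at 1.25 and 2.31 CPM in ΔHD2/fl lines 1 and 2 (3.62-fold and at least 20.8-fold higher) and at 0 to 0.355 CPM in the 7 other lines. Its mean difference was 0.37 ± 0.12 (log2(CPM + 1), SE, limma adjusted p = 0.0469), under the fold limit. The response in ΔHD2/- minus that in ΔHD2/fl was -1.20 ± 0.33 and was not called (adjusted p = 1, or 0.199 with the block), although it was with cell line as a random effect (0.0442). Cdh11 passed the filter only through the 2 ΔHD2/fl libraries with TGFβ, where it is high, so that this contrast could only be tested in a gene that already differed. Cdh6 had no read in any untreated line. With TGFβ it reached 0.605 and 1.92 CPM in ΔHD2/fl lines 1 and 2, at least 4.68- and 17.3-fold higher, and at most 0.0757 CPM elsewhere. Its low values kept it out of the test, so it was the 1 member of 7 that was not tested. It also overlaps the genes Gm35018 and Gm46513.

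**Figure D4:**
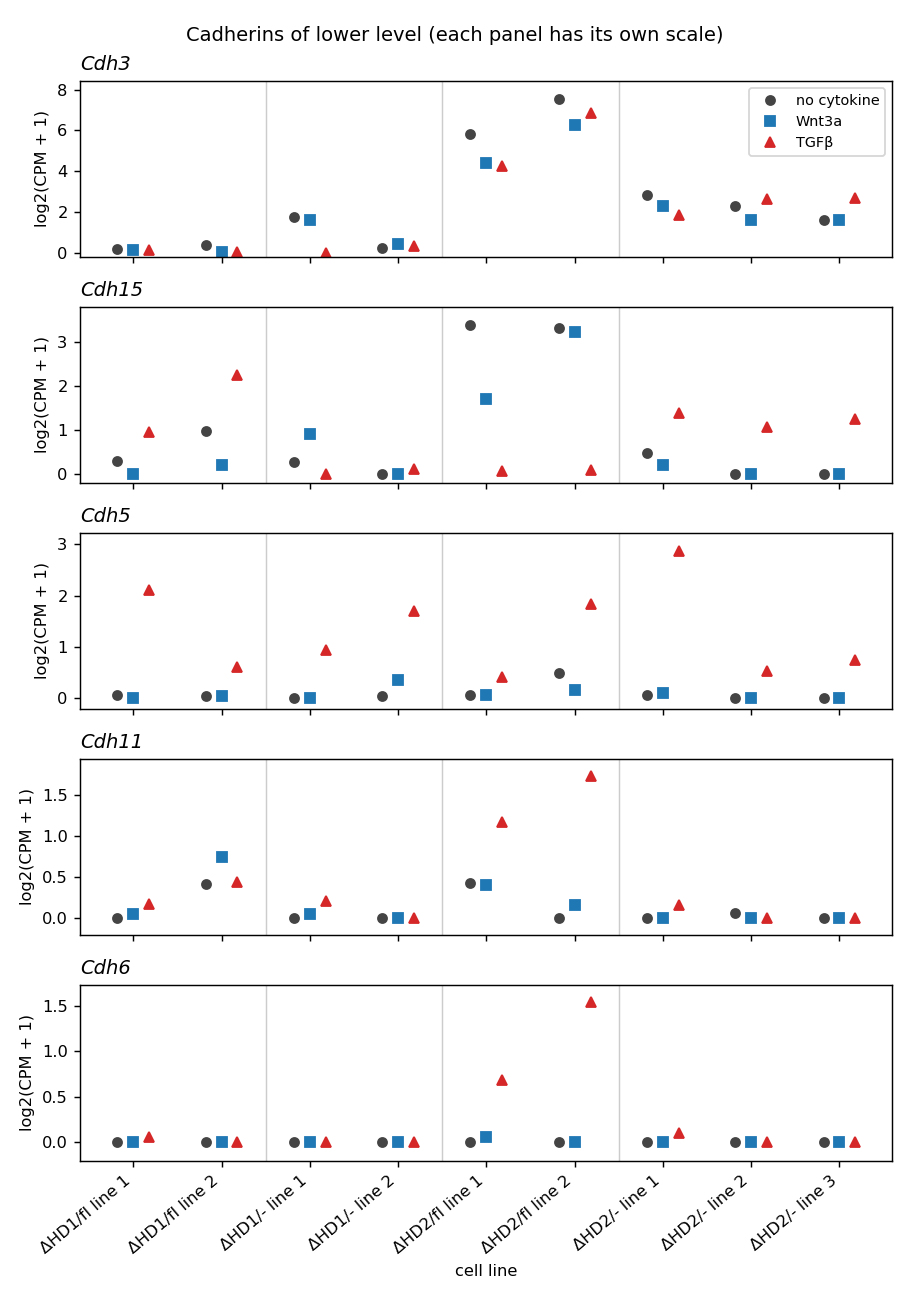
Levels of Cdh3, Cdh15, Cdh5, Cdh11 and Cdh6 as log2(CPM + 1) in the 9 lines, 1 point per library, coloured by treatment, with a scale for each panel. With TGFβ, Cdh15 went from 9.53 and 9.03 CPM to under 0.1 CPM in both ΔHD2/fl lines, where Cdh11 and Cdh6 were higher, and Cdh5 was higher in all 9 lines.

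With Wnt3a, no tested member was called by limma or edgeR, with or without the block, and none had an unadjusted p under 0.05 in the mean response. Of all genes 0.0226% were called without the block by either tool, and with it 0.241% by limma and 0.362% by edgeR. The mean differences were -0.19 ± 1.60 for Cdh1 and -0.11 ± 0.84 for Cdh2 (log2(CPM + 1), SE, limma adjusted p = 1 for both). With the block their SE was 0.59 and 0.25. In single lines the fold of Cdh1 lay between 0.749 and 1.04 in the 7 lines that made it, and Cdh2 between 0.760 and 1.14 in the 8 lines that made it. The Cdh1 share stayed within 81.9% to 99.9% in those 7 lines. Cdh3 was lower in 8 of 9 lines, at 20.3 from 54.8 CPM and 75.3 from 183 CPM in the ΔHD2/fl lines, and 11.8% of all genes were lower in at least 8 of 9. Its mean difference was -0.48 ± 0.38 (adjusted p = 1, or 0.294 with the block). Cdh15 was at 2.25 CPM in ΔHD2/fl line 1, from 9.53 CPM, and at 8.37 CPM in line 2, from 9.03 CPM. In ΔHD1/- line 1 it was higher, at 0.874 from 0.214 CPM, and in the ΔHD1/fl lines lower, with 0 from 5 reads in line 1 (at least 2.40-fold) and 4 from 26 reads in line 2 (6.83-fold). For the Wnt3a response, no tested member was called as different between ΔHD1/- and ΔHD1/fl (0% of genes called) or between ΔHD2/- and ΔHD2/fl (0.0151%), by either tool. At an unadjusted p under 0.05 there were 0 members, other than Cdh15 by edgeR with the block in the ΔHD1 comparison.

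Other classical cadherins were mostly silent, and 2 of 11 passed the filter. Cdh10, a cadherin known from the brain, was called for TGFβ (2.46 ± 0.48 on log2(CPM + 1), SE, limma adjusted p = 0.00229). It was higher in 9 of 9 lines, from at most 0.948 CPM to 0.216 to 36.1 CPM, highest in ΔHD1/- line 1 and next in ΔHD2/fl line 1 (34.9 CPM). Like Cdh5, it would not have passed the filter without its TGFβ libraries. Cdh24 was not called. Ctnnb1, Ctnna1, Ctnnd1 and Jup, which encode intracellular partners, were read in every line, whereas Ctnna2, Ctnna3 and Ctnnd2 had no read in 4 or more of the untreated lines. Among 16 catenin and junction genes 14 were tested. Pvr, a nectin-like receptor, was called higher (1.41 ± 0.24, adjusted p = 0.000808), and with the block Nectin3 was too (1.55 ± 0.19, adjusted p = 5.78e-05). Of all tested genes, limma called 1.86% higher without the block and 8.92% in either direction with it. The list median was 0.05 against -0.16 for all tested genes. Without cytokine Ctnnb1 (β-catenin) was at 5094 and 5406 CPM in ΔHD2/- lines 2 and 3 and at 975 to 2406 CPM in the 7 others. Jup (plakoglobin) was at 83.8 CPM in ΔHD1/- line 2, 352 CPM in ΔHD1/fl line 2 and 516 to 1330 CPM in the others.

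Epithelial transcription and splicing factors and EMT factors were also looked at in the 2 lines with almost no Cdh1. How many of all tested genes were lowest or highest in these 2 lines was not counted, so no count of factors is given. Esrp1, an epithelial splicing factor, had no read in the untreated line 2 of ΔHD1/fl or ΔHD1/- and was at 195 to 530 CPM in the other 7. Zeb1, a repressor of Cdh1, was at 205 and 134 CPM in these 2 lines and at 1.31 to 52.9 CPM in the others. Zeb2 was at 29.1 and 24.5 CPM, against 0.592 to 10.2 CPM. These genes were picked after the values were seen. Klf4 did not divide the lines, at 25.9 and 110 CPM in these 2 lines and 24.1 to 350 CPM in the others. The other EMT factors did not divide the lines in this way: Snai1 was highest in ΔHD1/fl line 1 (74.0 CPM), Twist1 in ΔHD2/- line 1 (36.6 CPM) and Snai2 in ΔHD2/fl line 2 (33.3 CPM). In ΔHD1/- line 1, where Cdh1 was lost, Esrp1 went from 195 to 7.23 CPM with TGFβ and Grhl2 from 52.8 to 3.14 CPM. Epithelial markers went both ways there, with Epcam from 263 to 12.5 CPM but Cldn4 from 183 to 554 CPM and Krt18 from 637 to 1079 CPM. So did the EMT factors. Zeb2 went from 10.2 to 30.9 CPM, Snai1 from 18.1 to 56.6 CPM, Zeb1 from 52.9 to 68.6 CPM and Tcf3 from 195 to 230.1 CPM. Twist1 went from 19.97 to 12.9 CPM, Twist2 from 14.8 to 3.18 CPM and Snai2 from 4.66 to 4.09 CPM. Over all lines, 3 of 10 epithelial transcription and splicing factors were called lower with TGFβ, Grhl3 (-2.46), Grhl1 (-2.29) and Ehf (-2.16), at limma adjusted p of 0.00528, 0.0233 and 0.0144. Of all tested genes 3.56% were called lower. With the block 8 of 10 were (9 by edgeR), against 5.9% of all genes (7.78% by edgeR), Klf4 (-1.88, adjusted p = 0.000122) leading the added ones. The list median was -1.76 on log2(CPM + 1), against -0.16 for all genes. Of 7 EMT transcription factors none was called by limma or edgeR without the block, with 3 and 1 at an unadjusted p under 0.05, and with the block Zeb2 was called higher (1.29 ± 0.34, limma adjusted p = 0.00802). edgeR with the block called Zeb2 higher and Twist2 lower (-1.27, adjusted p = 0.0103), the latter lower in 9 of 9 lines. The limma median of the 7 was -0.21. Rescaling by the median of ratios moved the median of all genes from -0.16 to -0.02 and the share of higher calls from 34.4% to 50.2%. No member that was called changed direction under it. Of the marker lists, basal and myoepithelial genes had 2 of 6 tested members called lower with TGFβ, Trp63 (-2.73) and Oxtr (-1.88), at limma adjusted p of 0.0472 and 0.00971, against the 3.56% of all genes called lower. With the block 4 of 6 were lower (5.9% of all genes) and Acta2 higher (2.01), and edgeR without it called Oxtr lower and Acta2 higher. No tested epithelial, fibroblast, endothelial or leukocyte marker was called without the block by limma or edgeR. Genes that limma called higher with the block were Cldn4 (1.81) and Col1a1 (1.21). edgeR with the block, which called 13.8% of all genes, called 3 of 8 epithelial markers higher and 3 lower, and 2 of 7 fibroblast markers higher. With Wnt3a no gene of these lists was called by limma, with or without the block, and edgeR with the block called 1, the endothelial marker Pecam1, lower (-1.30, adjusted p = 0.0482).

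Genes with the pattern most like each tested member were found by Pearson's r of log2(CPM + 1) over the 27 libraries, which share cell lines. Closest to Cdh1 were Esrp1 (0.982), St14 (0.981) and Spint2 (0.978). Closest to Cdh2 were Cdk7 (0.901), Paip1 (0.895) and Plod2 (0.889), and Cdh2 followed Cdh1 little (-0.16). Ptpru (0.949), Fam81a (0.924) and Gucy1a2 (0.906) were most like Cdh3. Wfdc8 (0.949), Cfi (0.900) and Tm4sf4 (0.878) were most like Cdh5, all at 11.5 CPM or less. For Cdh11 they were Scara3 (0.876), Dennd2a (0.820) and Nr3c2 (0.813), and for Cdh15 Rhov (0.804), Adgrg2 (0.796) and Ces2f (0.784). The last 3 members were near 0 in most libraries.

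On GRCm38, Cdh1 lies on chromosome 8 at 106603350 to 106670247 and Cdh3 just before it at 106510852 to 106556911, on the same chromosome as Cdh5 (104101613 to 104144504), Cdh11 (102632095 to 102785493) and Cdh15 (122848374 to 122867397). Cdh2 lies on chromosome 18 at 16588877 to 16809246 and Cdh6 on chromosome 15 at 13028699 to 13176407. Cdh1 and Cdh3 followed each other in part (r 0.606 over the libraries), but Cdh3 was not made in every line with Cdh1. In ΔHD1/fl line 1, with 606 CPM of Cdh1, Cdh3 was at 0.137 CPM.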

How the data were processed

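Libraries were stranded mRNA, read from a single end. The authors kept uniquely mapped STAR alignments (mm10), counted RefSeq exons with QuasR and deposited CPM per Entrez gene. Every value was a whole multiple of 1 read (100%, tolerance 0.05), so counts were recovered. A count of 3 reads, the most that 0 allows, was 0.089 to 0.137 CPM. Of 24454 identifiers 24374 matched a symbol.

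Genes reaching 1 CPM in 2 or more libraries (13270) were fitted on log2(CPM + 1), which understates changes of low genes, with limma 3.58.1 (trend, robust, R 4.3.3) in 1 fit of 12 group means. Cell line as a block was an alternative: libraries of 1 line, numbered alike, deviated together (r 0.509 to 0.94). Others were edgeR 4.0.16 quasi-likelihood on recovered reads, line as a random effect (statmod 1.5.0), median-of-ratios scaling, a smaller pseudocount (0.1), an unfiltered table, adjusted p alone and leaving out each line. Averaging ΔHD2/- lines 2 and 3, and block with scaling, were added after seeing the data. Tests were checked on simulated data.

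Named were all 7 members, the 3 genes most like each tested member, and up to 4 called genes per list; other names were chosen after their values were seen. Members and lists were chosen with earlier results of these data known. Per the labels, replicates are 2 lines from different mice for each genotype. ΔHD2/- has 3 lines, of which 2 and 3 were nearly alike, and whether these share a mouse is not given, so that its n = 3 may overstate the number of mice. Exon lengths are of GENCODE transcripts with a RefSeq identifier. The result of 1 marker gene is not reported here.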

Additional observations from a re-analysis of the deposited data

Results flagged for a closer look

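Over the 9 lines, 3 changes with TGFβ stood apart from the nearest line by more than Dixon's critical value for 9 values. Chance passes this limit in about 1 of 20 groups of normally distributed values. The change of Cdh1 was -7.27 on log2(CPM + 1) in ΔHD1/- line 1 and -2.03 in the next line. Cdh6 changed by 1.54 and Cdh11 by 1.73 in ΔHD2/fl line 2, with 0.682 and 0.741 in the next line. That rate does not hold for these values. Both libraries had 3 reads or fewer in 7 of 9 lines for Cdh6 and in 5 of 9 for Cdh11, and line 2 of ΔHD1/fl and of ΔHD1/- had almost no Cdh1 to lose. The TGFβ response of Cdh15 differed between ΔHD2/- and ΔHD2/fl by 4.37 in the test of the difference itself (limma adjusted p = 0.00468).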

How the results depend on the processing

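Genes called for the mean TGFβ response, 719, came to 2234 by adjusted p alone, 1169 with cell line as a random effect, 1184 with cell line as a replicate block, 1834 by edgeR with the block, 1198 with ΔHD2/- lines 2 and 3 averaged in the block, 1137 with block and median-of-ratios scaling, 455 to 933 with 1 line left out and 1079 to 1396 with that and the block. For the mean Wnt3a response, 3 became 5 unfiltered, 5 by adjusted p alone, 51 with the random effect, 32 with the block, 48 by edgeR with it, 8 averaged with it, 32 with block and scaling, 1 to 81 with 1 line left out and 6 to 217 with that and the block. Between ΔHD1/- and ΔHD1/fl, 9 became 5 at a pseudocount of 0.1, 14 unfiltered, 0 by edgeR, 37 with the replicate number as a block, 5 averaged and 5 to 225 with 1 line left out. Between ΔHD2/- and ΔHD2/fl, 73 became 4 by edgeR, 156 with the number block, 28 averaged and 26 to 749 with 1 line left out. For the ΔHD1 difference in TGFβ response, 1 became 0 at the smaller pseudocount, 2 unfiltered, 0 scaled, 0 by edgeR, 3 with the random effect or the block, 5 by edgeR with it, 0 averaged with or without it, and 0 to 13 with 1 line left out. For the ΔHD2 one, 4 became 0 at the smaller pseudocount, by edgeR with or without the block and averaged, 10 unfiltered, 25 with the random effect, 13 with the block, 20 with block and scaling and 0 to 25 with 1 line left out. For the Wnt3a response the ΔHD1 difference went from 0 to as many as 54 with 1 line left out, and the ΔHD2 one from 2 to 0 at the smaller pseudocount and by edgeR with or without the block, 8 unfiltered, 14 with the random effect, 16 with the block, 14 with block and scaling and 0 to 29 with 1 line left out. Estimates that changed sign, none of them called, were Cdh2 (0.011 by edgeR) and Cdh5 (0.27 by edgeR, 0.29 with its block, -0.0475 to 0.0342 with 1 line left out) under Wnt3a, Cdh1 between ΔHD1/- and ΔHD1/fl (-0.23 at the smaller pseudocount, -4.62 to 4.75 with 1 line left out), Cdh2 between ΔHD2/- and ΔHD2/fl (-0.116 to 0.0198 with 1 line left out) and Cdh1 in the ΔHD1 difference in TGFβ response (-5.98 to 1.35, likewise). The causes were not tested. ΔHD1/- and ΔHD1/fl libraries of one number deviated together at r 0.117 to 0.472, and those of ΔHD2 at 0.0871 to 0.19. Whether lines of one number share a tumour is not given, so the number was a block only as an alternative. If the ΔHD1 lines are paired, fits without that block took their shared difference as error. Besides the calls given with the results, the cell line block changed no member's call. Without either ΔHD2/fl line Cdh11 missed the filter and has no value. Unfiltered, Cdh6 was called in the ΔHD2 difference in TGFβ response. Depth limits Cdh5, Cdh6, Cdh11 and Cdh15, whose lowest levels were 0 to a few reads.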
